A study of Mus musculus with 18 samples.

Results

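Psmb8 overexpression was compared with a mScarlet control in cultures of mouse cortical neurons, in 12 of the 18 RNA sequencing libraries of the study. The 6 Psmb8 libraries came from cultures transduced with a lentivirus that overexpresses Psmb8, and the 6 mSc libraries from cultures transduced with a lentivirus for mScarlet, a red fluorescent protein. The study's other 6 libraries, from cultures that overexpressed Psmb5, entered the fit and are used here only beside the main comparison. In every group lentivirus was added after 7 days of culture, and RNA was taken 10 days after that. Libraries of both groups carry the numbers 1 to 6, and libraries of the same number were taken as pairs. Of 43629 genes in the deposited count table, 14333 had a mean of at least 1 CPM (counts scaled to library size) over the 12 libraries, with Psmb8 itself set apart, and these are the genes described.

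The labels give no strain, age or sex for the cultures and no promoter for the lentiviral constructs. The origin of the replicates (animals, litters or wells) is not stated either, and p-values therefore refer to the variation among these libraries, part of which may be technical. One text field speaks of an Ifng construct for every sample, in conflict with the treatment tags; the counts of Ifng summed to 7 over the 6 Psmb8 libraries and to 1 over the 6 mSc libraries.

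The proteasome degrades ubiquitin-tagged proteins. Its 20S core is a barrel of alpha and beta rings, the catalytic sites lie on the beta ring, and the 19S cap recognises, unfolds and feeds in substrates. In cells exposed to interferon, β5i (encoded by Psmb8) is built into new particles in place of the constitutive β5 subunit (Psmb5), and β1i (Psmb9) and β2i (Psmb10) take the places of their counterparts. Such immunoproteasomes are abundant in immune cells and are known for producing peptides for MHC class I; neurons at rest hold little of them.

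Library totals ranged from 16091906 to 18630396 counts in Psmb8 and from 15337511 to 21074229 counts in mSc, so that 1 CPM was worth between 15.5 and 22 counts. Neuron markers summed to between 5232 and 6469 CPM in Psmb8 libraries and between 5144 and 6359.9 CPM in mSc libraries, over 12 of 12 markers measured. Astrocyte markers summed to between 2704 and 6060.1 CPM in Psmb8 and between 2573 and 7063 CPM in mSc, with number 1 the highest in both groups. The sum was lower in the Psmb8 library in 5 of 6 pairs. Of 15 measured markers 12 lay below 0, against 49.1% of all genes. Of these markers 0 were called and 1 had an unadjusted p under 0.05 in the lower direction, against 5.39% of all genes. The median log2 difference of the markers ran from -0.20 to 0.23 over the pairs and was above 0 in pairs 5 and 6. Of 14 microglia markers 11 lay under 1 CPM, and of 17 vascular, mural and fibroblast markers 11 lay under 1 CPM, with Cldn5, an endothelial tight-junction gene, at 0 in every one of these libraries. Libraries 3 and 6 of both groups had the highest sums of interferon-stimulated genes: 195 and 328 CPM in Psmb8, against 249 and 440.4 CPM in mSc, while the other numbers lay between 104 and 139.5 CPM in Psmb8 and between 117 and 135 CPM in mSc. In bulk RNA, fewer cells of a type and less RNA per cell cannot be told apart.

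The transgene was seen in every library labelled for it. Psmb8 (chr17:34197721-34201454 in GRCm38, on the plus strand) had 1028, 546, 1038, 796, 859 and 1056 CPM in Psmb8 libraries 1 to 6, against 0.84, 1.56, 12.2, 1.06, 2.59 and 19.4 CPM in mSc libraries 1 to 6. Every Psmb8 library lay above every mSc library, and within mSc the highest levels were those of libraries 3 and 6. Its log2 fold change was 7.38 (SE 0.35, adjusted p = 2.09e-11, from edgeR's quasi-likelihood test with the number as a block and Benjamini-Hochberg adjustment over 15671 tested genes, as for all adjusted p-values here). Gene counts do not separate transgene reads from those of the endogenous gene.

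Psmb5, the constitutive subunit that β5i replaces, had 48.3, 49.6, 47.8, 51.1, 46.9 and 45.8 CPM in Psmb8 libraries 1 to 6, against 41, 41.8, 42.3, 43.5, 43.9 and 45.1 CPM in mSc libraries 1 to 6. Its 6 Psmb8 libraries lay above its 6 mSc libraries with no overlap, as for 0.0628% of all genes. The paired log2 difference averaged 0.168 ± 0.091 (SD, n = 6 pairs), with an exact two-sided sign-flip p of 0.03125, the smallest that 6 pairs can give. Every gene that runs 1 way in all 6 pairs has this p, as 3.36% of all genes did upwards and 2.51% downwards. In the fit across all genes the log2 fold change of Psmb5 was 0.17, with an adjusted p of 0.655. Its SE of 0.12 came from a spread that the Psmb5-overexpressing libraries share in. Psmb9, which lies close to Psmb8 on the same chromosome and encodes β1i, had 0.577 to 10.5 CPM in Psmb8 libraries, against 0.709 to 16.7 CPM in mSc libraries and was lower in the Psmb8 library of all 6 pairs (log2 fold change -0.60, SE 0.14, adjusted p = 0.0712). For Psmb10 (β2i) the log2 fold change was 0.00027 (SE 0.065). Tap1, the neighbouring peptide transporter gene, was lower in 5 of 6 pairs (log2 fold change -0.23, SE 0.079, adjusted p = 0.249).

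Beyond Psmb8, 50 of the 14333 genes were called at an adjusted p under 0.05 (0.349%): 17 were higher in Psmb8 (0.119%) and 33 were lower (0.23%). The changes were small. The 17 higher genes had log2 fold changes from 0.16 to 0.65 (median 0.27), the 33 lower genes from -1.17 to -0.19 (median -0.29), 32 of the 50 changed by no more than 1.25-fold and 6 by more than 1.5-fold. Among the higher genes 15 of 17 were higher in all 6 pairs, which 3.36% of all genes were, and among the lower genes 28 of 33 were lower in all 6 pairs, which 2.51% were. The 6 Psmb8 libraries lay wholly above the 6 mSc libraries for Hsd11b1, Mgst3 and Acot7 and wholly below them for Fbxl16, Arhgap33, Ddn and Lsm11; over all genes 0.0628% did not overlap in the first direction and 0.0488% in the second. At an unadjusted p under 0.05 there were 831 genes higher (5.8%) and 773 lower (5.39%).

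The calls depend on treating same-numbered libraries as pairs: with no block, 0 genes were called, and 300 had an unadjusted p under 0.05. Without number 3 in any group the counts were 1 higher and 7 lower, and in a fit of the 12 libraries alone they were 7 higher and 16 lower.

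**Figure D1:**
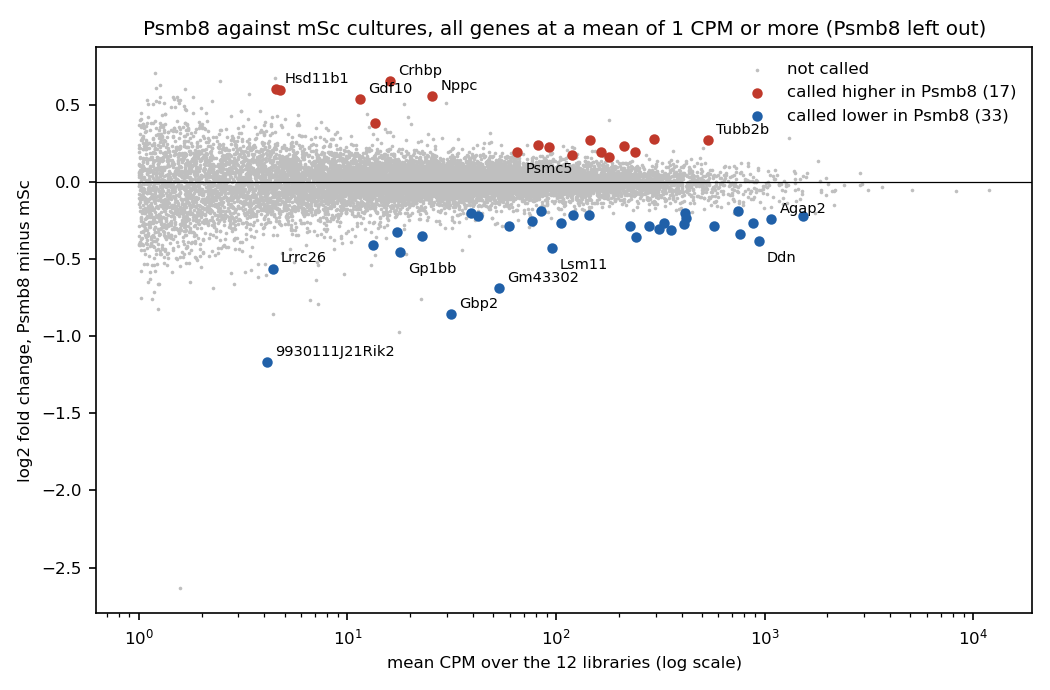
Log2 fold change (Psmb8 minus mSc, from the blocked fit of 18 libraries) against mean CPM on a log scale for the 14333 genes described; red points are the 17 genes called higher, blue points the 33 called lower and grey points the rest. Most called genes lie within 0.5 log2 units of 0 and above 10 CPM, and the lowest grey point is the oligodendrocyte marker Bcas1 at a mean of under 2 CPM.

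The gene with the smallest p was Lsm11, whose protein is a subunit of the U7 snRNP that trims the 3′ ends of replication-dependent histone mRNAs. Lsm11 (chr11:45928269-45944935, minus strand) had 81, 88.2, 74.7, 64.5, 95.1 and 85.1 CPM in Psmb8 libraries 1 to 6, against 97.8, 110.2, 105, 101, 131 and 109 CPM in mSc libraries 1 to 6. No Psmb8 library reached the lowest mSc library, and Lsm11 fell by 25.6% in the fit (log2 fold change -0.43, SE 0.042, adjusted p = 1.35e-05). The list of 19 measured histone processing genes held no other called member and had a median log2 fold change of 0.03. Lsm10, the partner of Lsm11 in the same ring, had a log2 fold change of 0.19 (adjusted p = 0.584).

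A group of lower genes encodes proteins of the dendrite and the postsynaptic side of excitatory synapses. All those named here and in the next paragraph have GC-rich transcripts (57.7 to 63.3% GC, against a median of 50.3% over all described genes). Grin1, the obligatory subunit of NMDA receptors, had a median of 713 CPM (560.1 to 759) in Psmb8 libraries, against 899 CPM (682 to 958) in mSc libraries, lower in 6 of 6 pairs (log2 fold change -0.33, SE 0.055, adjusted p = 0.00599). Shank3, a scaffold that links receptor complexes to the actin cytoskeleton, had a median of 297 CPM (254 to 374) in Psmb8 libraries, against 358 CPM (296 to 419.5) in mSc libraries (log2 fold change -0.27, SE 0.042, adjusted p = 0.0039). The ranges of the groups overlap for both genes, while each pair runs the same way. Ddn (dendrin), a dendritic and postsynaptic protein, had a median of 839 CPM (605 to 905) in Psmb8 libraries, against 1054 CPM (958 to 1132) in mSc libraries (log2 fold change -0.38, SE 0.059, adjusted p = 0.0039), and library 4 of Psmb8 was the lowest of all; without number 4 its log2 fold change was -0.31 (adjusted p = 0.000733). Arhgap33, a GTPase-activating protein of the sorting nexin family, had a median of 313 CPM (288 to 358) in Psmb8 libraries, against 388 CPM (368 to 425) in mSc libraries (log2 fold change -0.31, SE 0.041, adjusted p = 0.000664); the groups do not overlap.

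Further genes of dendrites, spines and synaptic signalling were lower. Agap2, a GTPase-activating protein for Arf, had a log2 fold change of -0.24 (adjusted p = 0.0231), Ppp1r9b, the actin-binding spine protein spinophilin, -0.26 (adjusted p = 0.0396), and Psd, an exchange factor for Arf6, -0.29 (adjusted p = 0.0226). Nsmf, which carries the name jacob and moves between NMDA receptors and the nucleus, had a log2 fold change of -0.24 (adjusted p = 0.00969). Neurl1a, an E3 ubiquitin ligase of neurons, had a median of 210.2 CPM (189 to 247) in Psmb8 libraries, against 281 CPM (219 to 320.0) in mSc libraries (log2 fold change -0.36, SE 0.052, adjusted p = 0.00245). Kctd13, an adaptor of a cullin-3 ubiquitin ligase that acts on RhoA, had a log2 fold change of -0.26 (adjusted p = 0.00832). Fbxl16, an F-box protein with no overlap between groups, had a median of 704 CPM (623 to 739) in Psmb8 libraries, against 794 CPM (746 to 835) in mSc libraries (log2 fold change -0.19, SE 0.039, adjusted p = 0.0354). Ppp1r9b and Fbxl16 were each called in 13 of 30 alternative runs. In the Psmb5 libraries, set against the same mSc libraries, the log2 fold changes of Grin1, Shank3, Ddn, Arhgap33 and Neurl1a were -0.16, -0.11, -0.18, -0.11 and -0.21, none of them called. These genes were chosen by their difference from those mSc libraries, which can by itself draw the Psmb5 values downwards.

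Few other genes of the synaptic lists passed the threshold. Of 34 measured postsynaptic scaffold genes 2 were called lower, Shank3 and Agap2, and 0 higher, against 0.23% and 0.119% of all genes. The median log2 fold change was -0.0081, and 7 of 34 had an unadjusted p under 0.05 in the lower direction, against 5.39% of all genes. Of 6 NMDA receptor subunits Grin1 was the 1 called, against 0.23% called lower over all genes, and the median was -0.11. Among 24 genes of AMPA and kainate receptors and their auxiliary proteins 0 were called, with a median of 0.0039, and 4 and 5 had an unadjusted p under 0.05 in the higher and lower direction. Among 45 genes of presynaptic release 0 were called, with a median of 0.011 and 5 with an unadjusted p under 0.05 in each direction. Rab3b, a vesicle GTPase that was called higher, is not in that list. All described genes had a median of 0.0017, and 50.9% lay above 0.

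**Figure D2:**
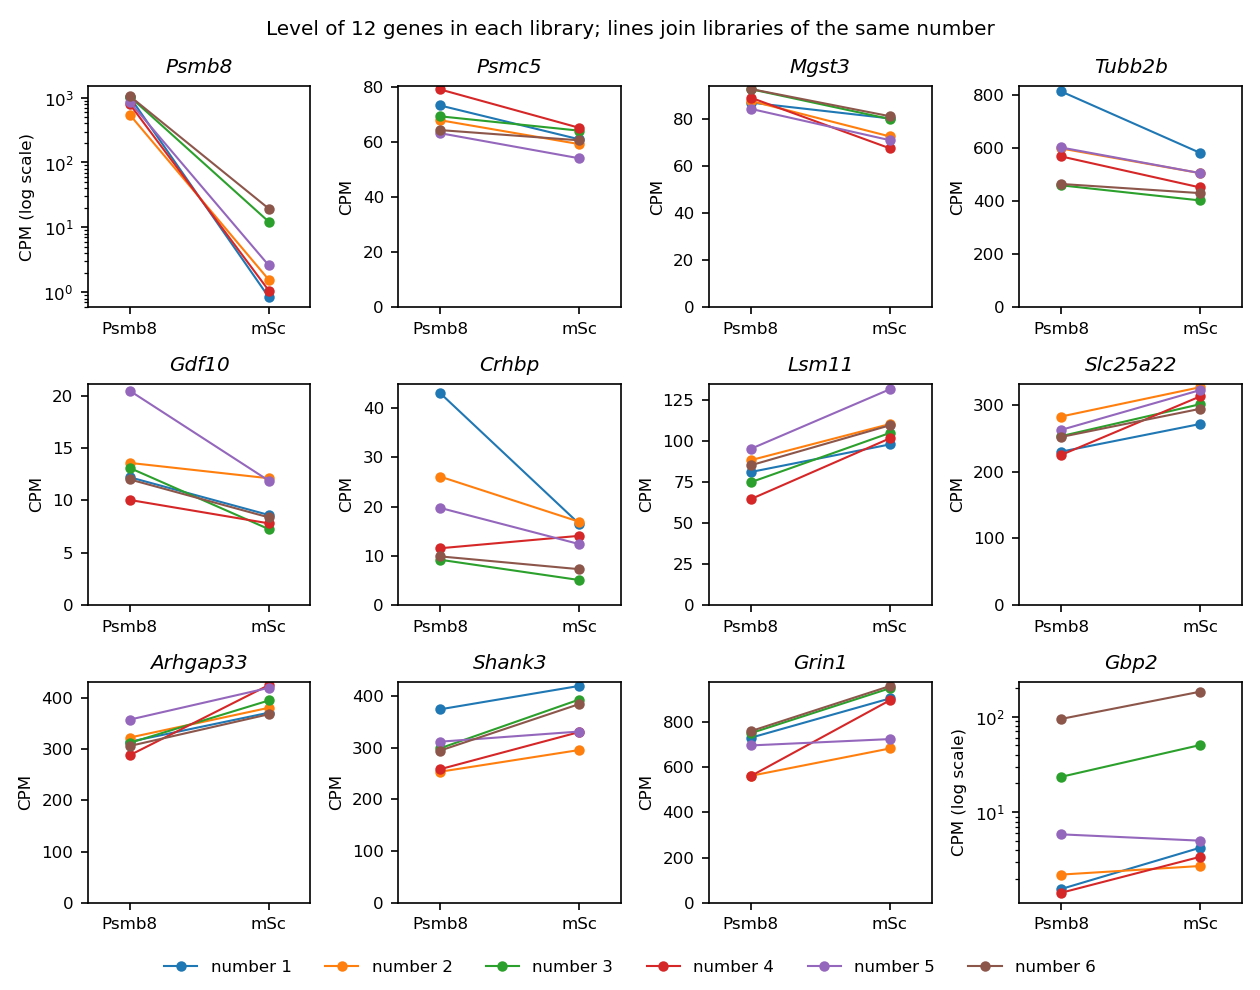
Level in CPM of 12 genes in each Psmb8 library (left) and mSc library (right), with lines joining libraries of the same number; Psmb8 and Gbp2 are on a log scale and the other axes start at 0. Mgst3 rises and Lsm11, Arhgap33 and Slc25a22 fall in all 6 pairs, Crhbp runs against the rest in pair 4, and Gbp2 runs from 1.44 CPM (Psmb8 library 4) to 182 CPM (mSc library 6).

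Genes of calcium handling and of mitochondrial glutamate transport were among those lower. Slc25a22, a mitochondrial glutamate carrier, had 230.4, 283, 254, 225, 263 and 252 CPM in Psmb8 libraries 1 to 6, against 272, 327, 302, 313, 323 and 295 CPM in mSc libraries 1 to 6. It was lower in all 6 pairs and fell by 17.8% in the fit (log2 fold change -0.28, SE 0.037, adjusted p = 0.000664). Of 12 genes of mitochondrial carriers and glutamate enzymes it was the 1 called, against 0.23% called lower over all genes, with a list median of 0.014. Slc8a2, a sodium-calcium exchanger of the plasma membrane, had a median of 394 CPM (336 to 422) in Psmb8 libraries, against 456 CPM (379.9 to 479.6) in mSc libraries (log2 fold change -0.20, SE 0.043, adjusted p = 0.0387), and Ryr1, a calcium release channel, had a median of 15.1 CPM (11 to 20.1) in Psmb8 libraries, against 18.4 CPM (13.6 to 25.9) in mSc libraries (log2 fold change -0.32, SE 0.067, adjusted p = 0.0358). These were the 2 called among 22 genes of calcium pumps and stores, against 0.23% called lower over all genes, and the list median was -0.014. Slc8a2 was called in 12 of 30 alternative runs and Ryr1 in 12 of 29. Both calls were lost in the fit of the 12 libraries alone. That of Slc8a2 was also lost with the GC trend removed, and that of Ryr1 with the length trend removed. Wfs1, a membrane protein of the endoplasmic reticulum, had a median of 297 CPM (207 to 324) in Psmb8 libraries, against 364 CPM (239 to 439) in mSc libraries (log2 fold change -0.30, SE 0.058, adjusted p = 0.0231).

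The other lower genes have varied roles. Among those with small changes were Capn5 (-0.25), a calpain protease, Lztr1 (-0.21), an adaptor of a cullin-3 ligase for Ras proteins, Pcdhga3 (-0.22), which shares exons with the other gamma-protocadherins, Faap100 (-0.20), a Fanconi anaemia core protein, and Btbd9 (-0.19), a BTB-domain gene, as log2 fold changes. Wdr6, a WD-repeat protein that partners a tRNA methyltransferase, fell by 17.3% (log2 fold change -0.27, SE 0.036, adjusted p = 0.000664), and Sowaha, an ankyrin-repeat gene, fell by 18.1% (log2 fold change -0.29, SE 0.044, adjusted p = 0.00389). Proteins of the cell surface and matrix were Clstn1 (-0.22), a synaptic adhesion and transport protein, Edil3 (-0.22), an integrin ligand, Chpf (-0.29), which polymerises chondroitin, and Lamp5 (-0.35), a membrane protein of some interneurons and other neurons, all as log2 fold changes. Lpl, lipoprotein lipase, had a median of 10.5 CPM (8.76 to 14.7) in Psmb8 libraries, against 15.5 CPM (10.5 to 19.7) in mSc libraries and was lower in 5 of 6 pairs (log2 fold change -0.41, SE 0.089, adjusted p = 0.046). Its call was kept in 11 of 29 alternative runs. Lrrc26 (chr2:25289915-25291180, plus strand) had a median of 3.67 CPM (1.64 to 5.0) in Psmb8 libraries, against 5.75 CPM (2.93 to 6.85) in mSc libraries (log2 fold change -0.56, SE 0.10, adjusted p = 0.0162); it ends 1 base before Grin1 (chr2:25291181-25319187, minus strand), which points towards it, so reads that run past either end cannot be told apart without strand. Gp1bb, a platelet glycoprotein gene, shares exonic sequence with Sept5 on the same strand, and their counts may be shared: Gp1bb had a log2 fold change of -0.46 (adjusted p = 0.0039) and Sept5, a neuronal septin, -0.089 (adjusted p = 0.275). Exons of annotated antisense genes overlap Grin1, Shank3, Ddn, Wdr6, Kctd13, Psd, Sowaha, Ryr1, Btbd9, Gbp2, Them6, Mllt11, Tubb4b, Rab3b, Nnat and Dusp3, and reads from both strands cannot be told apart here.

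The 17 higher genes include Crhbp, Hsd11b1, Nppc and Gdf10, whose products are secreted or act on hormones. Crhbp, a secreted protein that binds corticotropin-releasing hormone, had 43, 26.1, 9.19, 11.5, 19.7 and 9.88 CPM in Psmb8 libraries 1 to 6, against 16.5, 16.9, 5.07, 14.1, 12.4 and 7.28 CPM in mSc libraries 1 to 6. It was higher in 5 of 6 pairs and lower in pair 4, and the largest difference was in pair 1 (log2 fold change 0.65, SE 0.14, adjusted p = 0.0451). Without number 1 its log2 fold change was 0.46 (SE 0.12, adjusted p = 0.118) and the call was lost, and without number 4 it was 0.83 (adjusted p = 0.000687). Hsd11b1, the enzyme that regenerates active glucocorticoid, had 7.53, 5.58, 5.62, 5.02, 4.69 and 4.53 CPM in Psmb8 libraries 1 to 6, against 3.94, 3.31, 4.12, 2.24, 4.0 and 3.95 CPM in mSc libraries 1 to 6. Its groups do not overlap, although library 1 of Psmb8 stands above the other 5 (log2 fold change 0.60, SE 0.13, adjusted p = 0.0479). Nppc, the C-type natriuretic peptide, had a median of 33.2 CPM (18.2 to 36.3) in Psmb8 libraries, against 20.8 CPM (14.5 to 26.9) in mSc libraries and was higher in 5 of 6 pairs (log2 fold change 0.55, SE 0.11, adjusted p = 0.0329). Gdf10, a secreted member of the TGF-beta family, had a median of 12.6 CPM (10.0 to 20.5) in Psmb8 libraries, against 8.48 CPM (7.25 to 12.1) in mSc libraries (log2 fold change 0.54, SE 0.093, adjusted p = 0.0086), with library 5 of Psmb8 the highest. Crhbp and Hsd11b1 were the 2 called of 11 measured genes of corticotropin-releasing hormone and glucocorticoid signalling, against 0.119% called higher over all genes. Of the 11, 8 lay above 0, against 50.9% of all genes, with a median log2 fold change of 0.12. Crhbp was called in 11 of 29 alternative runs, Hsd11b1 in 10 of 28 and Nppc in 13 of 30, so none of these calls is stable. Gdf10 was the 1 called of 26 genes of activin, TGF-beta and BMP signalling, where 11 lay above 0 and 15 below, with a median of -0.028. Of 28 genes of neurotrophins and growth factors 0 were called, with a median of -0.0049. With Psmb5 in place of Psmb8 the log2 fold changes of Crhbp, Hsd11b1, Nppc and Gdf10 against the same mSc libraries were 0.24, 0.059, 0.30 and 0.16. The choice of these genes by their difference from those mSc libraries can by itself draw the Psmb5 values upwards.

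Other higher genes encode enzymes and proteins of vesicles, membranes and the cytoskeleton. Mgst3, a microsomal glutathione transferase, had 86.9, 87.6, 92.6, 89, 84.3 and 92.7 CPM in Psmb8 libraries 1 to 6, against 80.2, 72.5, 79.9, 67.5, 70.9 and 81.1 CPM in mSc libraries 1 to 6, so that each Psmb8 library lay above each mSc library (log2 fold change 0.24, SE 0.039, adjusted p = 0.00572). Acot7, a brain acyl-CoA thioesterase, also had groups that do not overlap, with a median of 190.4 CPM (179.5 to 201) in Psmb8 libraries, against 169 CPM (165 to 177) in mSc libraries (log2 fold change 0.16, SE 0.034, adjusted p = 0.0453). Its call was kept in 10 of 30 alternative runs. Tubb2b and Tubb4b, beta-tubulins, had log2 fold changes of 0.27 (adjusted p = 0.00832) and 0.20 (adjusted p = 0.0231); they are close copies of each other and of other beta-tubulins, and reads shared between copies could be split. Nnat (neuronatin), a small membrane protein of developing brain, had a median of 351 CPM (230.4 to 406) in Psmb8 libraries, against 302 CPM (172 to 338) in mSc libraries (log2 fold change 0.28, SE 0.052, adjusted p = 0.0192). Smaller or less abundant were Fam163a (0.59), Them6 (0.38), Tmem35a (0.27), a chaperone of nicotinic receptors, Inpp5f (0.23), an inositol phosphatase, Rab3b (0.22), a vesicle GTPase, Mllt11 (0.20) and Dusp3 (0.17), a dual-specificity phosphatase, again as log2 fold changes.

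Tubulin genes as a list lay above 0 in 13 of 14 cases. Of these 14, 2 were called higher (0.119% over all genes) and 10 had an unadjusted p under 0.05 in the higher direction (5.8% over all genes). Their median log2 fold change was 0.12, against 0.047 with Psmb5. Tuba1a, an alpha-tubulin of developing neurons, had a log2 fold change of 0.13 (adjusted p = 0.161). The 40 genes of microtubule-binding proteins and motors had a median of 0.0078 with 0 called.

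Genes of the proteasome's core and cap all lay higher in Psmb8, by 8.74 to 11.5% at the medians of 4 lists. Of these 32 genes 1 passed the threshold, against 0.119% called higher over all genes. Psmc5, an ATPase of the 19S base that unfolds substrates, had 73.4, 68, 69.4, 79.2, 63.3 and 64.4 CPM in Psmb8 libraries 1 to 6, against 61.1, 59.3, 64.2, 65.3, 54.2 and 60.7 CPM in mSc libraries 1 to 6, and was higher in all 6 pairs (log2 fold change 0.20, SE 0.04, adjusted p = 0.0332). Psmc5 was called in 11 of 30 alternative runs and not in the fit of the 12 libraries alone, so its call is not stable. All 6 base ATPases had an unadjusted p under 0.05 in the higher direction, as did 6 of 7 alpha subunits, 6 of 6 beta subunits and 11 of 13 other subunits of the cap, against 5.8% of all genes; all 32 lay above 0, against 50.9%. The median log2 fold changes of these 4 lists were 0.16 for the base ATPases, 0.12 for alpha, 0.13 for beta and 0.12 for the other cap subunits. With Psmb5 they were 0.03, 0.0027, 0.037 and 0.013.

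The pairs differed in size but not in sign for these 4 lists. The median difference of the base ATPases was 0.22, 0.15, 0.14, 0.24, 0.13 and 0.079 in pairs 1 to 6, and that of the alpha subunits 0.021, 0.15, 0.092, 0.26, 0.061 and 0.06. Pair 4 was the highest in all 4 lists. Without numbers 3 and 6 the medians were 0.18 for the base ATPases, 0.13 for alpha, 0.14 for beta and 0.14 for the other cap subunits. Psmb2, a beta subunit, had a log2 fold change of 0.19 (adjusted p = 0.0532), and Psmb7, the beta subunit that Psmb10 replaces, 0.16 (adjusted p = 0.0732). Assembly factors gave a different picture: of 9 measured, 0 were called, 1 had an unadjusted p under 0.05 (Pomp, a maturation factor of the 20S core, log2 fold change 0.14, SE 0.045, adjusted p = 0.212) and the median was 0.065. The 12 alternative regulators had a median of 0.049 and 0 called. The 4 other immunoproteasome and PA28 genes had 0 called and a median of -0.018.

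**Figure D3:**
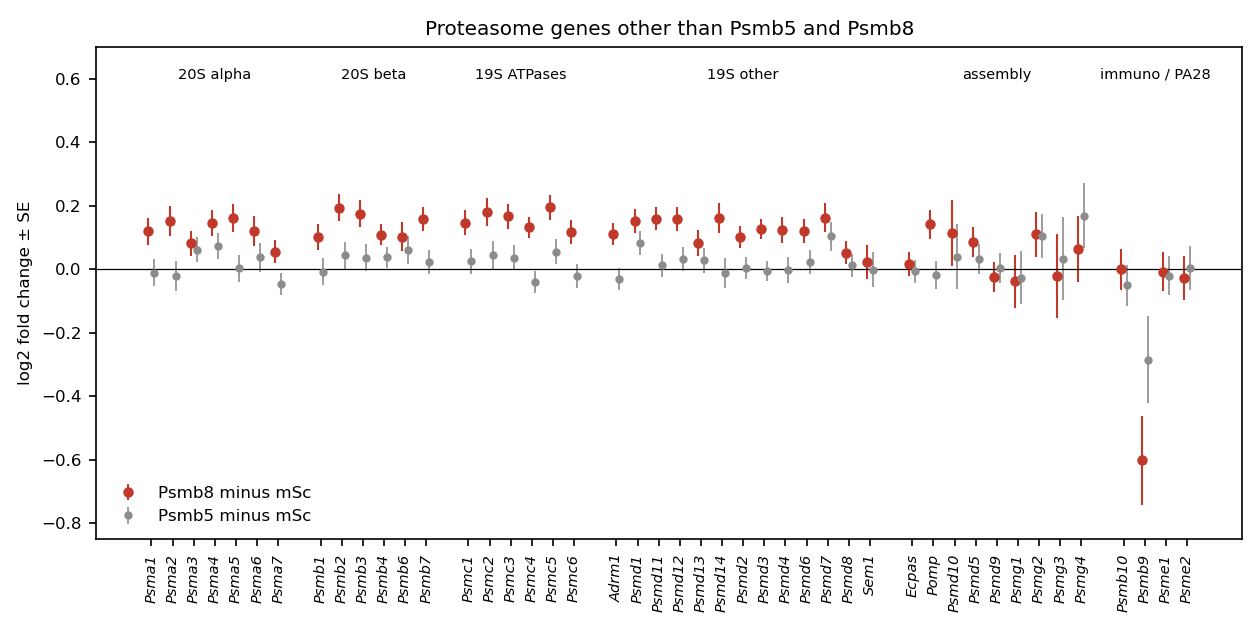
Log2 fold change ± SE of each proteasome gene other than Psmb5 and Psmb8, for Psmb8 minus mSc (red) and Psmb5 minus mSc (grey, the same mSc libraries), from the fit of 18 libraries. The red points of the 20S and 19S lists all lie above 0, and Psmb9 lies at -0.60.

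Among genes that interferon induces, Gbp2 was called lower, as were Gm43302 and 9930111J21Rik2, which lie among other interferon-inducible GTPase genes. Gbp2, a guanylate-binding GTPase that acts on intracellular pathogens, had 1.58, 2.23, 23.5, 1.44, 5.88 and 94.5 CPM in Psmb8 libraries 1 to 6, against 4.26, 2.74, 50.4, 3.42, 5.05 and 182 CPM in mSc libraries 1 to 6. Libraries 3 and 6 stand far above the others in both groups, and the Psmb8 library was the lower in 5 of 6 pairs, with pair 5 the exception (log2 fold change -0.86, SE 0.14, adjusted p = 0.00599). Gm43302, which overlaps Gbp6 and Gbp10, had 4.37, 4.23, 53.3, 2.02, 11.4 and 162 CPM in Psmb8 libraries 1 to 6, against 10.0, 4.37, 108, 4.55, 8.91 and 268 CPM in mSc libraries 1 to 6, and the pairs ran as those of Gbp2 did (log2 fold change -0.69, SE 0.14, adjusted p = 0.0329). The gene 9930111J21Rik2, which lies between Tgtp1 and Tgtp2, was at 0 in libraries 2 and 4 of both groups and reached 13.3 CPM in Psmb8 library 6, against 25.6 CPM in mSc library 6 (log2 fold change -1.17, SE 0.24, adjusted p = 0.0358); its call rests on few libraries. These reads could be shared with the close copies beside them. Without numbers 3 and 6 the log2 fold change was -0.56 ± 0.23 (SE) for Gbp2, with an adjusted p of 0.503, and -0.44 for Gm43302, with an adjusted p of 0.599; neither was called, and 9930111J21Rik2 had too few counts to be fitted.

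All 11 measured GTPases of the Gbp and Irg families lay below 0, against 49.1% of all genes. Of the 11, 1 was called lower, against 0.23% of all genes, and 9 had an unadjusted p under 0.05 in that direction, against 5.39%. Their median log2 fold change was -0.54, against -0.29 with Psmb5. The pairs did not run alike: the median difference was -1.37, 0, -0.67, -0.034, 0.35 and -0.63 in pairs 1 to 6. Of 12 MHC class I genes 0 were called and 9 had an unadjusted p under 0.05 in the lower direction, with a median of -0.21; H2-Q4 had the smallest p (log2 fold change -0.47, SE 0.11, adjusted p = 0.0837). Of 23 other interferon-stimulated genes 0 were called and 9 had an unadjusted p under 0.05 in the lower direction, with a median of -0.21, and Bst2, a tether of budding virus, had the smallest p (log2 fold change -0.52, SE 0.16, adjusted p = 0.199). Without numbers 3 and 6 the medians of the 3 lists were -0.33 for the GTPases, -0.039 for MHC class I and -0.086 for the other interferon-stimulated genes. Of 13 genes of NF-kB and inflammation 0 were called, with 0 at an unadjusted p under 0.05 in either direction. Of the markers of microglia, the resident immune cells, 3 of 14 reached 1 CPM, and their sum was 36.7 to 50.1 CPM in Psmb8, against 34.7 to 52.0 CPM in mSc; its part in the result was not tested.

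The promoters of these GTPases carry the letters that interferon-activated factors bind, which is why they are shown. RefSeq promoters (GRCm38.p6, 250 bases before to 50 after a gene's start) were found for 8 of the 11, and all 8 held the core of the interferon-stimulated response element, GAAA repeated after any 2 bases, on either strand, against 3.44% of the 10795 described genes with a promoter. The gamma-activated site TTCNNNGAA was in 5 of 8, against 8.06%. The windows are 60 bases long, read 5′ to 3′ on the strand of the gene, with both motifs in capitals where they fall in the window.
Gbp2: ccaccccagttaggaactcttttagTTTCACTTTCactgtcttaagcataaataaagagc
Gbp3: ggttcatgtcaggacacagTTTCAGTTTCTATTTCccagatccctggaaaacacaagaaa
Gbp7: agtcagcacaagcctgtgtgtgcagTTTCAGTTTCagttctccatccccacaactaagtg
Igtp: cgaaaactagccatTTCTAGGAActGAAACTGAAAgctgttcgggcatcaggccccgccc
Irgm1: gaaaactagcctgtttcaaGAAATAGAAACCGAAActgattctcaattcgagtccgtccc
Irgm2: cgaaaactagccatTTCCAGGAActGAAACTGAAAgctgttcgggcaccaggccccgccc
Tgtp1: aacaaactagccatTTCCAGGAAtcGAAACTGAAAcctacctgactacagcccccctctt
Tgtp2: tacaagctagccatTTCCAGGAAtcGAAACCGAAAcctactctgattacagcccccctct

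They lie at chr3:142620579-142620638, plus strand for Gbp2, chr3:142559980-142560039, plus strand for Gbp3, chr3:142530258-142530317, plus strand for Gbp7, chr11:58199497-58199556, plus strand for Igtp, chr11:48871410-48871469, minus strand for Irgm1, chr11:58214888-58214947, plus strand for Irgm2, chr11:48992289-48992348, minus strand for Tgtp1 and chr11:49064248-49064307, minus strand for Tgtp2. Gbp2, Gbp3 and Gbp7 carry the core on the opposite strand, and the other 5 on the strand of the gene. Igtp, Irgm2, Tgtp1 and Tgtp2 share a gamma-activated site followed by the response element 2 bases on. Gbp3 and Irgm1 hold 2 overlapping copies of the core, and 2 further gamma-activated sites, both in the Gbp7 promoter, lie outside the window shown. Among the called genes the core was in 0 of 15 higher and 2 of 23 lower genes with a promoter (8.7%). For the proteasome subunits, the antioxidant response core TGANNNNGC was in 15 of 26 promoters (57.7%), against 48% of all, and CCAAT in 11 of 26 (42.3%), against 42.9%. A match is a description of letters and not a bound site.

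Genes of energy metabolism showed small shifts with 0 calls. Of 21 glycolysis genes 9 had an unadjusted p under 0.05 in the higher direction, against 5.8% of all genes, and 0 in the lower, with a median log2 fold change of 0.067; without library 1 of Psmb8 the median was 0.013. Gapdh, a glycolytic dehydrogenase, had the smallest p (log2 fold change 0.13, SE 0.031, adjusted p = 0.0926). Pfkfb3, a kinase that makes the activator of phosphofructokinase and sets glycolytic flux, did not pass the threshold (log2 fold change 0.18, SE 0.059, adjusted p = 0.235). Of 35 nuclear-encoded respiratory chain genes 33 lay above 0, against 50.9% of all genes, and 11 had an unadjusted p under 0.05 in that direction, with a median of 0.054. Cycs, cytochrome c, did not pass the threshold (log2 fold change 0.25, SE 0.061, adjusted p = 0.0732). All 13 transcripts encoded on mitochondrial DNA lay below 0, against 49.1% of all genes, 3 with an unadjusted p under 0.05 (5.39% over all genes), with a median of -0.064; their pair medians were -0.065, -0.20, -0.22, -0.26, 0.24 and 0.14, so pairs 5 and 6 ran the other way. For 23 genes of cholesterol synthesis the median was 0.14 (0.13 with Psmb5), with pair medians of -0.088, 0.066, -0.08, 0.65, 0.21 and -0.063, and pair 4 far above the rest; without number 4 the median was 0.0057.

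Interneuron neuropeptides had the highest list median. Of 13 measured, 1 was called higher (Crhbp), against 0.119% of all genes. At an unadjusted p under 0.05 there were 6 in the higher direction (5.8% of all genes) and 1 in the lower (5.39%). The median log2 fold change was 0.27, against -0.026 with Psmb5. Vip, vasoactive intestinal peptide, had 4.01 to 23.1 CPM in Psmb8 libraries, against 3.14 to 13.8 CPM in mSc libraries, and Pnoc, the precursor of nociceptin, 14.1 to 38.8 CPM in Psmb8 libraries, against 11.6 to 20.1 CPM in mSc libraries. Each was higher in 6 of 6 pairs and missed the threshold (log2 fold change 0.44, SE 0.099, adjusted p = 0.056 for Vip and log2 fold change 0.50, SE 0.11, adjusted p = 0.056 for Pnoc). Sst (somatostatin) had a log2 fold change of 0.40 (adjusted p = 0.129), Cort (cortistatin) 0.42 (adjusted p = 0.0926) and Npy (neuropeptide Y) 0.38 (adjusted p = 0.267), while Pdyn (prodynorphin) had one of -0.44 (adjusted p = 0.427). The pair medians were 0.70, 0.32, 0.31, -0.12, 0.14 and -0.02, highest in pair 1 and below 0 in pairs 4 and 6. The median was 0.20 without number 1 and 0.42 without number 4.

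Lists of genes that mark the interneurons themselves had lower medians. For 23 genes of GABA synthesis and interneuron fate the median was 0.094 (-0.025 with Psmb5), with 0 called and 5 at an unadjusted p under 0.05 in the higher direction, against 5.8% of all genes. Gad1 and Gad2, the enzymes that make GABA, had log2 fold changes of 0.15 (adjusted p = 0.275) and 0.13 (adjusted p = 0.244), and Lhx6, a fate factor of somatostatin and parvalbumin interneurons, 0.26 (adjusted p = 0.282). The 22 genes of excitatory neurons and cortical layers had a median of -0.046, with 0 called and 4 at an unadjusted p under 0.05 in the lower direction, against 5.39% of all genes. Whether the share of interneurons in the cultures differed was not tested.

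**Figure D4:**
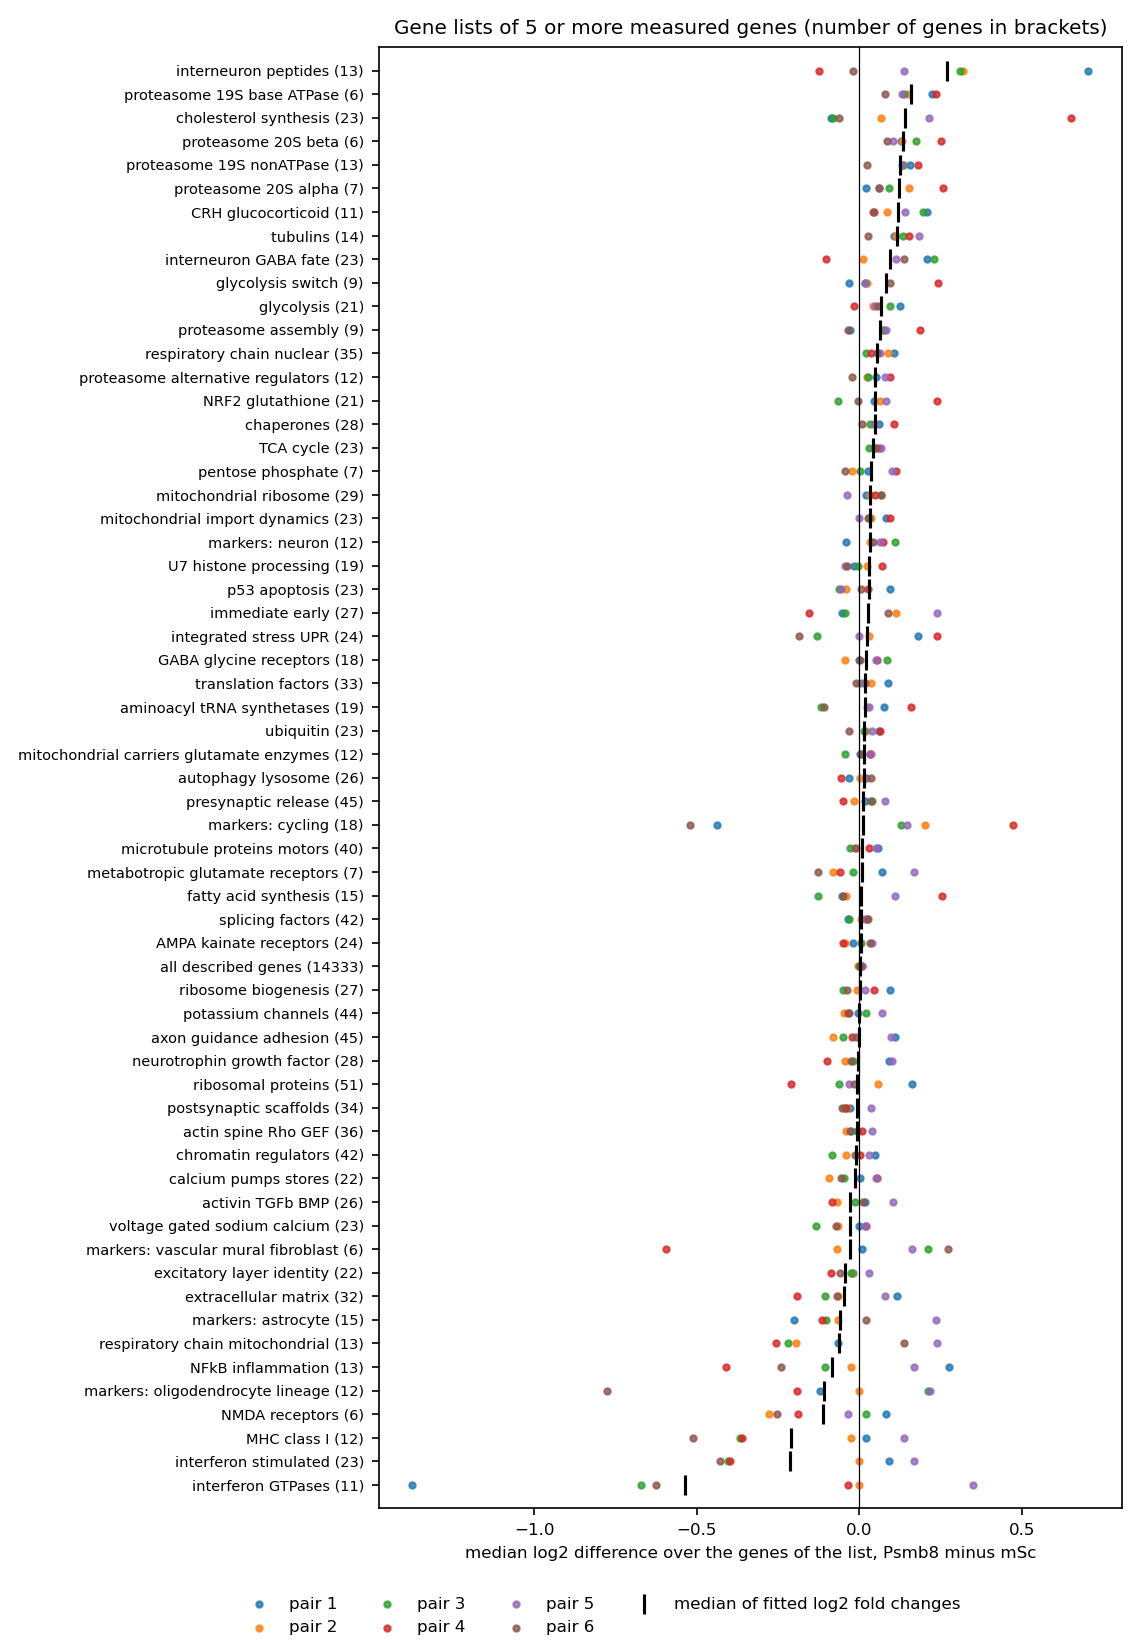
Median log2 difference over the genes of each list (Psmb8 minus mSc) in each of the 6 pairs (coloured points) and the median of the fitted log2 fold changes (black bars), for lists of 5 or more measured genes, from the highest median at the top. The 4 lists of proteasome subunits lie above 0 in every pair, while interneuron peptides, cholesterol synthesis and interferon GTPases spread widely between pairs.

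Lists of stress and protein synthesis held 0 called genes. They do not hold every gene of their kind. Mgst3, called higher, and Neurl1a, Kctd13, Lztr1 and Fbxl16, called lower, are in none of them. The medians were 0.023 for the integrated stress and unfolded protein response (24 genes), 0.049 for chaperones (28 genes), 0.015 for the ubiquitin system (23 genes), 0.049 for NRF2 and glutathione genes (21 genes), 0.029 for p53 targets and apoptosis (23 genes) and -0.0081 for ribosomal proteins (51 genes). Of 15 oligodendrocyte lineage markers, the 12 at 1 CPM or more lay below 0, against 49.1% of all genes, with a median of -0.11. Their pair medians were -0.12, -0.0001, 0.21, -0.19, 0.22 and -0.78, and their summed level was higher in the Psmb8 library in 3 of 6 pairs, so the pairs did not run alike. Bcas1, a gene of differentiating oligodendrocytes, had the lowest log2 fold change of all described genes and was not called (-2.63, SE 0.61, adjusted p = 0.0657). It had 0 to 1.21 CPM in Psmb8 libraries, against 0.0557 to 13.8 CPM in mSc libraries, and its mSc mean rests on library 1. Bcas1 was lower in 6 of 6 pairs, but both libraries lay under 1 CPM in pairs 2, 3, 5 and 6. Pair 3 had 0.0541 CPM in the Psmb8 library, against 0.0557 CPM in the mSc library. Pairs 5 and 6 had 0 CPM in the Psmb8 library, against 0.091 and 0.104 CPM in the mSc library. At such levels the sign of a pair rests on few counts and carries little weight.

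Genes called lower were GC-rich and long. The median GC content of the principal transcript was 57.9% for the 33 lower genes, 50.9% for the 17 higher genes and 50.3% for all described genes, and 21 of the 33 lower genes lay in the highest GC quintile (56.1 to 73.9%), against 3 of the 17 higher genes. Among these 21 were Grin1, Shank3, Ddn, Arhgap33, Agap2, Ppp1r9b, Psd, Nsmf, Neurl1a, Kctd13 and Fbxl16, the dendritic and synaptic genes described above (57.7 to 63.3%). Transcripts of the lower genes had a median of 4115 bases, against 1784 bases for the higher genes and 3041 bases for all. Over all genes the median log2 fold change was 0.011 in the lowest GC quintile and -0.021 in the highest. Pair 4 had the steepest slope, with medians of 0.12 and -0.14 in these quintiles, and pair 1 ran the other way, with -0.045 and 0.048.

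Pair 4 also held the largest difference for 20 of the 33 lower genes, and the median of the lower genes was -0.51 in pair 4, against -0.30 to -0.19 in the other 5 pairs. Without number 4, 30 genes were called higher and 28 lower, and the median log2 fold change of the 33 was -0.24. With a GC trend removed from each library 26 genes were called higher and 41 lower, among them 17 of the 17 and 31 of the 33. The calls lost were those of Slc8a2 and Faap100. After that removal the medians were 0.26 for the 17 and -0.25 for the 33. In pair 1, whose slope runs the other way, the median of the lower genes was -0.22. These genes were chosen on the same pairs, and 28 of the 33 were lower in all 6 pairs. That by itself puts their median below 0 in every pair.

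**Figure D5:**
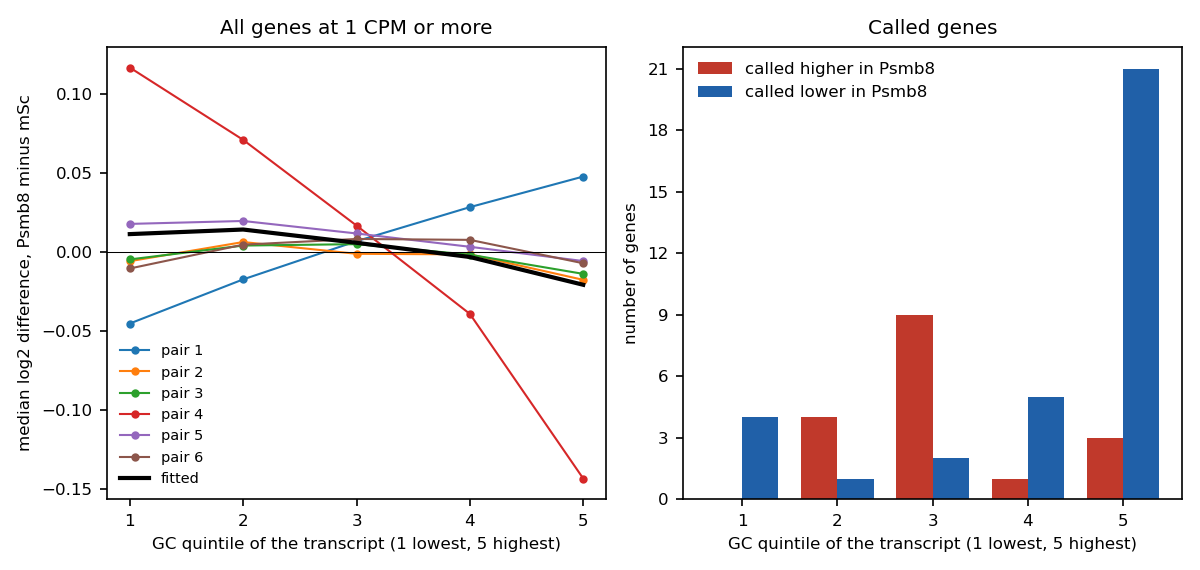
Left, median log2 difference (Psmb8 minus mSc) in each quintile of transcript GC content for the 6 pairs (coloured lines) and for the fitted log2 fold changes (black). Right, number of called genes in each quintile, higher (red) and lower (blue) in Psmb8. Pair 4 has 0.12 in the lowest and -0.14 in the highest quintile, and the highest quintile holds 21 of the 33 lower genes.

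Few of these genes differed between the constructs themselves. In the direct test of Psmb8 against Psmb5 libraries, 5 of 14333 genes were called (0.0349%): Psmb5, Mgst3, Slc25a22, Lsm11 and Pdpn. Lsm11 had a log2 difference of -0.35, SE 0.042, adjusted p = 0.000221, Mgst3 of 0.25, SE 0.039, adjusted p = 0.00746 and Slc25a22 of -0.21, SE 0.037, adjusted p = 0.026. Against mSc, Psmb5 libraries had log2 fold changes of -0.074 for Lsm11, -0.013 for Mgst3 and -0.069 for Slc25a22. Pdpn (podoplanin), a membrane glycoprotein of astrocytes and other cells, had 18.9 to 60.1 CPM in Psmb8 libraries, against 21.7 to 61.3 CPM in mSc libraries and no call against mSc (log2 fold change -0.12, SE 0.057, adjusted p = 0.479). Its log2 difference between Psmb8 and Psmb5 was -0.36 (SE 0.057, adjusted p = 0.00882), and Psmb5 libraries had a log2 fold change of 0.24 against mSc, which was not called. For the remaining called genes the difference between Psmb8 and Psmb5 did not pass the threshold, which does not show that the constructs act alike. Over the 17 higher genes the median log2 fold change of Psmb5 against the same mSc libraries was 0.097, against 0.27 for Psmb8, and over the 33 lower genes it was -0.13, against -0.29 for Psmb8. The genes were chosen by their difference from those mSc libraries, which can by itself draw the Psmb5 values the same way. Whether Psmb5 shares part of the effect was not tested. In Psmb5 against mSc 1 gene was called, Psmb5 itself (0.00698%).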

How the data were processed

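RNA was extracted with an RNeasy kit and sequenced after poly(A) enrichment, per the labels' protocols. What the authors deposited is a table of unnormalized counts by Ensembl gene, a column for each library. STAR 2.4, DESeq2 and the builds GRCm39 and mm10 are named in the submitters' processing notes, with no role; counter, strand setting and annotation were not given in the sources used here. Of 43629 gene IDs, 42462 were given a symbol.

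Counts were tested with edgeR 4.0.16 (R 4.3.3): filterByExpr by group left 15671 genes, which held 99.9% of each library's counts, TMM scaled the libraries, and 1 quasi-likelihood fit of all 18 libraries had group and replicate number as terms. Residual spread was thus estimated over 3 groups. P-values were adjusted over all tested genes (threshold 0.05), and CPM refers to TMM-scaled counts in tested genes. Standard errors were derived from the F statistic. A median in the text is followed by the lowest and highest library. At 1 CPM a gene had 15.5 to 22 counts, which limits low genes.

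What a replicate number stands for is not stated. After subtracting group means from log2 CPM, the 6 same-numbered pairs of Psmb8 and mSc correlated at r = 0.526 to 0.765, and differently numbered ones at -0.615 to 0.732 (mean -0.132, 30 pairs); each of the 6 correlated best with its own number, so the numbers were taken as pairs. The common biological coefficient of variation was 5.94% with the block and 17.9% without. No 2 libraries of a group looked like 1 library deposited again (chi-square per degree of freedom 2.8 to 35.3 over 30 pairs).

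The comparison, the 62 gene lists and the tests were chosen with earlier results of these data known, so no list is independent support; lists are described by counts and medians, with no set test. The text names Psmb8, Psmb5, the 15 called genes with the largest rise, the 15 with the largest fall, the 10 with the smallest p, and in each list at most 5 called members, or else the one with the smallest p; further list members, the remaining called genes and neighbours of named genes were chosen after their values were seen. Positions, GC content and length (of 1 principal transcript per gene) came from GENCODE's annotation of GRCm38, which may not be the build of the counts; 99.4% of the described genes had a GC value. Alternatives were no block, DESeq2 1.42.0, limma-voom (limma 3.58.1), DESeq2's size factors, library sizes without the transgenes, other filters on low counts, the 12 libraries alone, GC or length trends removed, and libraries left out. The fit was tested on simulated data with known changes.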

Additional observations from a re-analysis of the deposited data

Results flagged for a closer look

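Dixon's ratio (critical value 0.625, which chance exceeds in about 1 group in 20) was examined for the 50 called genes, Psmb8 and Psmb5. The other named genes were not examined. Of 104 groups of 6 values, 12 had 1 library whose gap to the nearest other library was a large part of the group's range. Interferon-induced genes account for 5 of these, all in number 6: Gbp2 in Psmb8 library 6 (ratio 0.763; 94.5 CPM, next highest 23.5 CPM) and in mSc library 6 (0.734), Gm43302 in Psmb8 library 6 (0.68), and 9930111J21Rik2 in Psmb8 library 6 (0.845) and in mSc library 6 (0.732). Number 4 had 4: Mllt11 (0.672, above the others) and Tubb4b (0.665, above) and Ddn (0.696, below, at 605 CPM against 814 to 905 CPM in the others) in Psmb8 library 4, and Wdr6 (0.816, above, at 548 CPM) in mSc library 4. The others were Hsd11b1 in Psmb8 library 1 (0.634, above), Gdf10 in Psmb8 library 5 (0.661, above) and Lsm11 in mSc library 5 (0.631, above).

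The effects of the 2 constructs against mSc differed, by the direct test of Psmb8 against Psmb5 libraries in edgeR's fit, for 6 named genes. The log2 difference between the effects was 7.72 for Psmb8 and -3.19 for Psmb5, which are the overexpressed genes, 0.253 for Mgst3, -0.214 for Slc25a22, -0.354 for Lsm11 and -0.36 for Pdpn. The values of the last 4 against mSc stand beside each other in the results.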

How the results depend on the processing

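The direction of all 50 called genes that could be fitted was kept in every alternative run, while the number of calls was not (17 higher and 33 lower in the fit reported). The genes were called on these same libraries, and 15 of the 17 and 28 of the 33 ran 1 way in all 6 pairs. A change of sign was therefore unlikely in any of these runs, and the kept direction is not independent support. With no replicate block there were 0 higher and 0 lower calls; the block is what lowers the spread. DESeq2 with the block called 52 higher and 82 lower (12 and 26 of the reported genes among them). Of the reported genes missing there, Gm43302 did not pass the threshold, and the others were given no adjusted p. Limma-voom called 20 and 50, no low-count filter 102 and 213, a fit of the 12 libraries alone 7 and 16, and GC-trend removal 26 and 41. DESeq2's size factors gave 17 and 38, library sizes without the transgenes 17 and 33, only genes of 1 CPM or more 17 and 41, only those of 5 CPM or more 14 and 39, and length-trend removal 21 and 41. Without both numbers 3 and 6, the interferon-rich libraries, there were 0 higher and 1 lower (Lsm11), with fewer libraries in the fit, and median log2 fold changes of the reported genes were 0.26 and -0.29.

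Leaving out 1 number from all groups gave 1 to 30 higher and 7 to 48 lower calls: 7 and 48 without number 1, 4 and 14 without 2, 1 and 7 without 3, 30 and 28 without 4, 4 and 36 without 5, and 5 and 13 without 6. Leaving out 1 library gave 3 to 23 higher and 14 to 55 lower calls, lowest for higher genes without Psmb8 library 3 (3 and 17) and for lower genes without mSc library 3 (4 and 14); Psmb8 libraries 1 (12 and 55), 2 (10 and 22), 4 (14 and 21), 5 (10 and 31) and 6 (8 and 15) and mSc libraries 1 (5 and 20), 2 (6 and 22) and 5 (9 and 43) each moved a count by more than 1.5 times. Medians of the reported genes stayed between 0.24 and 0.27 for higher and between -0.32 and -0.24 for lower genes in all of these. The choice of the genes on these same libraries favours such an outcome.

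Psmb5 kept a positive log2 fold change (0.057 to 0.25) and passed the threshold only with no low-count filter (0.16, adjusted p = 0.0443). Lsm11 was called in all alternatives but the fit with no block, and Arhgap33, Neurl1a, Slc25a22, Sowaha, Tubb2b and Wdr6 in all but that one and the one without numbers 3 and 6. The least stable calls were those of Acot7, Faap100, Fam163a and Hsd11b1, each kept in 10 alternative runs. Those of Crhbp, Dusp3, Lpl and Psmc5 were each kept in 11. List medians moved by more than the spread between pairs in 3 cases, while 1857 others did not. The 3 were glycolysis without Psmb8 library 1 (0.013), and mitochondrial carriers without Psmb8 library 1 (-0.017) or 2 (-0.020). That spread, the SD of the pair medians, was larger than the median itself for interferon GTPases (0.62 against -0.54) and cholesterol synthesis (0.29 against 0.14). For such lists the rule cannot flag a fall to 0. Cholesterol synthesis thus counted as not moved at 0.0057 without number 4. Depth limits genes near 1 CPM; where a cause is not named, it was not tested.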
